A study of Homo sapiens with 16 samples.

Results

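The set described here comprised 135 of the 24350 human probes on 16 single-colour Illumina bead arrays of HT1080 cells, an established human fibrosarcoma line. Their signal was lower than in control by at least a set limit after 1 h and after 12 h of A0, a thioxotriazole copper(II) complex, and did not reach that limit after 12 h of cisplatin. Members were chosen from the deposited processed intensities, with values under 32 set to 32 and log2 taken. A member had a group mean of -0.7 or lower relative to control at A0 1 h and at A0 12 h, a mean difference from -0.7 to 0.6 at cisplatin 12 h, and a detection score of at least 0.99 on both control arrays. These contrasts chose the members, so the values at A0 1 h, A0 12 h and cisplatin 12 h are given as a description.

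The groups were A0 at 25 µM for 1, 3, 6 and 12 h, cisplatin at 25 µM for 3, 6 and 12 h, and control cells, with 2 arrays each. All cells were grown in complete medium with serum, and the labels state neither a time nor a vehicle for the controls. Nothing in the labels states that the 2 arrays of a group are separate cultures, and p-values may therefore reflect technical spread alone. In this bulk RNA, fewer cells with a transcript and less of it per cell cannot be told apart.

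Copper(II) complexes with thioxotriazole ligands are cytotoxic, and the study's title links A0 to stress of the endoplasmic reticulum and to paraptosis, a form of cell death marked by swollen cytoplasmic vacuoles. Cisplatin is a platinum drug that forms crosslinks in DNA. On a bead array, labelled RNA binds to many beads that carry the same probe, and their mean brightness follows the level of the transcript in the sample. Near the background of the array this brightness no longer follows the transcript, so a fall from a low level is measured only down to a limit. The probes carry GI sequence numbers, and 0 of them matched the gene table used here, so no gene function can be attached to a member, no gene list could be counted among the members, and the identity of the cell line is taken from the labels.

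Of the 8264 probes detected on both control arrays, 541 met the limit at A0 1 h and 1005 at A0 12 h, and 229 met both. Among these 229, 73 were below the window at cisplatin 12 h, 21 were above it, and the remaining 135 are the members. The members closest to the limit stood at -0.71 at A0 1 h and at -0.71 at A0 12 h, and the closest probes outside stood at -0.70 and -0.69. Within 0.1 of the A0 1 h limit there were 30 members inside and 29 probes outside that met the other criteria, and at A0 12 h there were 16 and 18.

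By the suffix of the probe name, 114 members (84.4%) targeted a gene with a single transcript, 18 (13.3%) all variants of a gene and 3 (2.22%) 1 of several variants. Among the 8264 probes detected in control these shares were 82.7%, 12.0% and 5.34%. The members' mean control level ran from 5.81 to 11.1 on the log2 scale of the deposited values, with a median of 7.06, against a median of 7.70 for the 8264 probes. The members thus lay mostly in the lower part of the detected range. Their bead number per probe had a median of 41.5, against 42.5 for the 8264 probes.

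With A0 the members' median log2 difference from control was -0.95 at 1 h, -0.84 at 3 h, -0.9955 at 6 h and -1.03 at 12 h. The interquartile range was -1.21 to -0.82 at 1 h, -1.09 to -0.54 at 3 h, -1.25 to -0.81 at 6 h and -1.30 to -0.87 at 12 h. The median of the 8264 probes detected in control lay between 0.06 and 0.12 at these times. The rule did not use A0 3 h and A0 6 h, but they are set here against the control arrays that it did use, so these values are also a description. At A0 3 h 90 members (66.7%) stood at -0.7 or lower, where 5.59% of the 8264 probes did, and at A0 6 h 118 members (87.4%) did, where 8.29% of the probes did. For the 2 times of the rule, all 135 members met the limit by choice, against 6.55% of the probes at A0 1 h and 12.2% at A0 12 h. In all, 84 members met the limit at all 4 A0 times, 34 missed it only at 3 h, 6 missed it only at 6 h and 11 missed it at both of these times. Values of -1 or lower were reached by 61 members at 1 h, 44 at 3 h, 67 at 6 h and 73 at 12 h. At both 1 h and 12 h 35 members reached them. These counts include signals that the rule had raised to its lowest allowed value. Both arrays stood at that value for 13 members at A0 1 h, 7 at 3 h, 15 at 6 h and 20 at 12 h. There the differences are bounds and not measured falls. Members with the lowest control levels could not reach -1 for this reason. The same counts over the 8264 probes are not given.

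With cisplatin the members were also below control early. Their median difference was -0.64 at 3 h, -0.44 at 6 h and, within the bounds that the rule sets, -0.04 at 12 h. At 3 h 132 of the 135 members, at 6 h 109 and at 12 h 71 were below the control mean. On the normalised log2 scale used for the tests these counts were 132, 113 and 73. Of all tested probes, 52.4%, 51.5% and 50.1% were below control on that scale. The limit of -0.7 was met by 56 members (41.5%) at cisplatin 3 h, against 4.9% of the probes detected in control, and by 39 (28.9%) at 6 h, against 9.16%. At cisplatin 12 h 0 members met it by choice, against 11.5% of the probes. Under cisplatin 27 members met the limit at both 3 h and 6 h, 29 only at 3 h, 12 only at 6 h and 67 at neither time. For 69 members the values rose in order over 3, 6 and 12 h. The window that the rule set at cisplatin 12 h favours this order, and the same count over all probes was not made. All of these values share the control arrays with the rule, which chose probes that were high there. The control arrays gave the members medians of 6.83 and 6.90 on the normalised log2 scale, and differed by a median of -0.07 (replicate 1 minus replicate 2).

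The level on each array shows how far replicates differed. For the tests, signals were background-corrected and quantile-normalised (neqc), which leaves the median of the 9293 tested probes at 7.17 to 7.18 on every array. On this scale the members' median was 5.74 and 6.01 at A0 1 h, 6.02 and 6.20 at A0 3 h, 5.78 and 6.16 at A0 6 h and 5.85 and 5.92 at A0 12 h. It was 6.20 and 6.49 at cisplatin 3 h, 6.46 and 6.58 at cisplatin 6 h and 6.78 and 6.88 at cisplatin 12 h, against 6.83 and 6.90 in control. All 8 A0 arrays were below the cisplatin and control arrays, but A0 3 h replicate 2 and cisplatin 3 h replicate 1 nearly met, both at 6.20. These arrays include those that chose the members.

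Array brightness, read from the scaling factor of the deposited table, moved with these levels in some groups. The deposited table multiplied each array's signal by a factor between 0.848 and 2.55, and the replicate 1 arrays of A0 1 h, A0 3 h, A0 6 h and cisplatin 3 h had factors of 1.70, 2.22, 1.86 and 2.10, against 1.08, 0.848, 1.02 and 0.973 for the replicate 2 arrays of the same groups. In these 4 groups the median of the members' replicate 1 minus replicate 2 differences was -0.26, -0.37, -0.50 and -0.35. At A0 12 h the factors were 2.55 and 1.37 with a median difference of 0.0001, and at cisplatin 12 h they were 1.76 and 0.921 with a median difference of -0.13. At cisplatin 6 h factors of 1.40 and 1.24 stood beside a median difference of -0.22. The control arrays, the reference for every fall, had factors of 1.0 and 1.07 and median signals of 118.8 and 99.5. The median signal did not rank the replicates as the factor did in every group. On replicates 1 and 2 it was 118.1 and 101.4 at A0 1 h, 102.1 and 119.6 at A0 3 h, and 108.1 and 130.7 at A0 6 h. It was 93.5 and 119.4 at A0 12 h, 104.9 and 110.4 at cisplatin 3 h, 110.4 and 108.6 at cisplatin 6 h, and 115.9 and 99.7 at cisplatin 12 h. Of the 135 members, the arrays detected 75 and 121 at A0 1 h (55.6% and 89.6%, against 90.6% and 97.5% of the probes detected in control). They detected 81 and 130 at A0 3 h (60.0% and 96.3%, against 87.7% and 98.8%). At A0 6 h they detected 72 and 116 (53.3% and 85.9%, against 89.0% and 96.0%). At A0 12 h they detected 78 and 79 (57.8% and 58.5%, against 87.2% and 88.6%). The counts were 92 and 129 at cisplatin 3 h (68.1% and 95.6%, against 88.9% and 97.1%) and 124 and 130 at cisplatin 6 h (91.9% and 96.3%, against 94.9% and 94.4%). They were 123 and 135 at cisplatin 12 h (91.1% and 100%, against 88.1% and 95.6%). Each control array detected all 135, where the rule required detection. Neither array of the group detected 43 members at A0 12 h, 17 at A0 6 h, 13 at A0 1 h and 5 at A0 3 h. These had only a bound there, and their falls may be larger than the values given. The part of brightness in the members' levels was not tested. The 50 members detected on all 16 arrays, whose median control level was 8.20 against 6.61 for the other 85, had medians of -0.93, -0.85, -0.98 and -0.96 at A0 1, 3, 6 and 12 h and of -0.58, -0.47 and -0.10 at cisplatin 3, 6 and 12 h.

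The difference between A0 and cisplatin at 6 h was taken between arrays that the rule did not use, while its error came from the spread within all 8 groups, those of the rule included. The members were lower with A0: the median log2 difference was -0.54, with an interquartile range of -0.96 to -0.27, against a median of 0.00 for all tested probes, and 122 of the 135 differences were negative, against 49.6% of all. In limma's moderated test, 26 members (19.3%) passed a Benjamini-Hochberg adjusted p of 0.05, adjusted over the 9293 probes, with a lower value for A0. Of all tested probes, 4.87% passed in that direction. In the other direction 0 members passed, where 3.29% of all probes passed. At an unadjusted p under 0.05, 56 members were lower and 1 was higher, against 2087 of the 9293 tested probes in both directions together. The 26 differences ran from -2.62 to -0.79, with a median of -1.23 and adjusted p-values of 0.0015 to 0.0444.

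Both A0 6 h arrays were below both cisplatin 6 h arrays for 78 members (57.8%), against 26.3% of all tested probes, and above both for 2 members (1.48%), against 24.2% of all. Set array against array, the members' median difference was -0.70 and -0.96 for A0 6 h replicate 1 and -0.26 and -0.44 for A0 6 h replicate 2, against cisplatin 6 h replicates 1 and 2. A0 6 h replicate 2 was the brighter array in these last 2 comparisons, with a scaling factor of 1.02 against 1.40 and 1.24. The count of 26 was sensitive to the arrays. It was 8 (5.93%, against 2.54% of all tested probes) without A0 6 h replicate 1 and 29 (21.5%, against 4.11%) without A0 6 h replicate 2. It was 12 (8.89%, against 2.2%) without cisplatin 6 h replicate 1 and 2 (1.48%, against 1.31%) without cisplatin 6 h replicate 2, where the members' share was near that of all probes. Each of these fits leaves 1 group with a single array, which is assumed to vary like the other groups. With only the 8 arrays of A0 and cisplatin at 3 and 6 h in the model, none of them used by the rule, 15 members passed (11.1%, against 3.14% of all). When only probes detected on all 16 arrays were tested, 10 of the 50 members among them passed (20%, against 4.81%), and with no filter on dim probes 14 of 135 did (10.4%, against 1.34%).

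Among the 26, 11 were detected on both A0 6 h arrays, 8 on 1 of them and 7 on neither, while 25 were detected on both cisplatin 6 h arrays. For 6 of the 7 undetected ones, the signal with A0 was at least 1.35-fold to 1.81-fold lower than with cisplatin, taken as the cisplatin mean against the lowest signal of a detected probe or the probe's own, and the remaining 1 gave no bound above 1. The median level of the 26 was 5.39 and 5.80 on the A0 6 h arrays, against 6.86 and 7.13 on the cisplatin 6 h arrays. That of the other 109 members was 5.80 and 6.25, against 6.26 and 6.52. On the deposited scale 20 of the 26 stood above the control mean at cisplatin 6 h, as did 6 of the other 109. These 2 groups of members were formed from the 6 h arrays, so their 6 h values are a description. The 3 h arrays entered that choice through the shared error of the model, so their values are a description too. On them 24 of the 26 were lower with A0 than with cisplatin, with a median difference of -0.52, and 79 of the other 109 were lower, with a median of -0.20.

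At 3 h the members also leaned lower with A0 than with cisplatin, but no member passed the test. The median difference was -0.26, with an interquartile range of -0.42 to -0.01, against 0.01 for all tested probes, and 103 of the 135 differences were negative, against 48.9% of all. By limma's adjusted p 0 members passed in either direction, where 0.0108% of all probes passed in each, and the lowest adjusted p of a member was 0.551. At an unadjusted p under 0.05, 10 members were lower and 1 was higher, against 510 of the 9293 tested probes in both directions together. The A0 3 h arrays did not overlap with the cisplatin 3 h arrays for 34 members that were lower (25.2%), against 14.8% of all probes, and for 9 that were higher (6.67%), against 15.6%. The sign differed between pairs of arrays. A0 3 h replicate 1 was lower than cisplatin 3 h replicates 1 and 2 by medians of -0.27 and -0.62, whereas A0 3 h replicate 2 stood at 0.16 and -0.22 against them. The 2 same-numbered pairs thus had medians of -0.27 and -0.22, and the positive median came from arrays of different number.

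Between 3 h and 6 h the drugs' time courses were set against themselves. With A0 the members' median was -0.12 at 6 h relative to 3 h, and 87 of 135 were lower, against 50.9% of all probes. For A0 6 h replicate 1 the median was -0.20 and -0.55 against A0 3 h replicates 1 and 2. For A0 6 h replicate 2 it was 0.24 and -0.13, so the sign differed between pairs of arrays. By limma's adjusted p 0 members passed in either direction, as for all probes (0% in each). At an unadjusted p under 0.05, 8 members were lower and 2 higher, against 478 of the 9293 tested probes in both directions together. Arrays of A0 6 h and A0 3 h did not overlap for 28 members that were lower (20.7%), against 16% of all probes, and for 7 that were higher (5.19%), against 13.9%. With cisplatin the median was 0.25, and 103 of 135 were higher at 6 h than at 3 h, where 47.8% of all probes were lower. No member passed limma's adjusted p, the lowest being 0.133, where 0.0753% of all probes passed as lower and 0% as higher. At an unadjusted p under 0.05, 12 members were higher and 0 lower, against 902 of the 9293 tested probes in both directions together. Arrays did not overlap for 43 members that were higher (31.9%), against 21.8% of all, and for 5 that were lower (3.7%), against 17.4%. Set array against array, the medians for cisplatin 6 h minus 3 h ran from -0.04 to 0.56, the lowest and the highest against the brighter and the dimmer cisplatin 3 h array. The interaction, the A0 change minus the cisplatin change, had a member median of -0.36 and was negative for 111 of 135 members, against 52.1% of all probes. By limma's adjusted p 0 members passed (0% of all probes in either direction), with a lowest value of 0.254. At an unadjusted p under 0.05, 14 members were lower and 1 higher, against 669 of the 9293 tested probes in both directions together. The greater separation of the drugs at 6 h than at 3 h therefore did not pass the test for any single member.

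Between the times of the rule, 21 members stood lower at 12 h than at 1 h by at least 0.5, 14 stood higher by at least 0.5 and 100 lay within 0.5. The arrays of A0 3 h and 6 h took no part in this division, which itself sets the contrast between the 1 h and 12 h medians below. All probes were not divided in the same way. The 21 had a median of -0.41 for A0 6 h minus A0 3 h, with 17 lower and 4 higher, and medians of -0.81, -0.76, -1.22 and -1.65 relative to control at 1, 3, 6 and 12 h. The 14 had a median of 0.20 for the same difference, with 2 lower and 12 higher, and medians of -1.64, -1.52, -1.25 and -0.84 relative to control. The 100 others had a median of -0.13, with 68 lower and 32 higher. The lowest of the 4 A0 times, with ties counted at the earliest, was 1 h for 46 members, 3 h for 12, 6 h for 26 and 12 h for 51. Members set to 32 on both arrays at several times tie there, so the count at 1 h includes members without a single lowest time. The rule, which set limits at 1 h and 12 h, also favours these 2 times.

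Members that were low early under cisplatin were compared with those that were not. The 27 members at -0.7 or lower at both cisplatin 3 h and 6 h had medians of -1.08, -0.92, -1.02 and -1.06 at A0 1, 3, 6 and 12 h, and -0.40 at cisplatin 12 h. The 29 that met it only at 3 h had medians of -1.18, -0.98, -1.22 and -1.0037 with A0 and 0.12 at cisplatin 12 h, and the 12 that met it only at 6 h had medians of -0.83, -0.71, -0.91 and -0.98 with A0 and -0.34 at cisplatin 12 h. The 67 that met the limit at neither time had medians of -0.88, -0.81, -0.89 and -1.03 with A0 and 0.05 at cisplatin 12 h. The 26 that differed between the drugs at 6 h held 1 of the 27, 7 of the 29, 0 of the 12 and 18 of the 67, a count that the division by the cisplatin 6 h value helps to set.

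The probe GI_15812190-S had the most negative difference among the members that passed at 6 h. Its normalised log2 signal was 6.80 and 7.28 at A0 1 h, 5.87 and 7.18 at A0 3 h, 5.05 and 6.69 at A0 6 h and 6.57 and 7.13 at A0 12 h. It was 7.07 and 8.02 at cisplatin 3 h, 8.26 and 8.72 at cisplatin 6 h and 8.40 and 8.50 at cisplatin 12 h, against 7.90 and 8.09 in control. All 8 A0 arrays were below both control arrays, the cisplatin 6 h and 12 h arrays were above both, and A0 6 h replicate 1 did not detect the probe. At 6 h the mean was 5.87 ± 1.16 with A0 and 8.49 ± 0.33 with cisplatin (SD, n = 2 each), a log2 difference of -2.62 (SE 0.50, limma adjusted p = 0.00541). The call was lost without A0 6 h replicate 1, at -1.80 (adjusted p = 0.0515), and without cisplatin 6 h replicate 2, at -2.39 (adjusted p = 0.0721). At 3 h the difference was -1.02 (SE 0.50, limma adjusted p = 0.943), where the arrays overlapped.

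The probe GI_7662017-S went the other way at 6 h without passing the test. It read 5.84 and 6.05 at A0 6 h, where both arrays detected it, against 5.21 and 5.21 at cisplatin 6 h, where neither did. Its signal was at least 1.46-fold higher with A0, with the cisplatin arrays at the lowest signal of a detected probe or the probe's own (limma adjusted p = 0.197 for the measured means of 5.95 with A0 and 5.21 with cisplatin). At 12 h the rule itself placed A0 below cisplatin for all 135 members, so the order there is no finding about this probe. It read 5.60 and 5.31 with A0 at 12 h, detected on neither array, against 6.10 and 6.25 with cisplatin. Its other levels were 5.48 and 5.58 at A0 1 h, 4.84 and 5.58 at A0 3 h and 4.91 and 6.03 at cisplatin 3 h, against 6.39 and 5.87 in control.

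The other 2 probes were taken for their change between A0 3 h and A0 6 h, which neither passed. GI_23943911-S read 5.86 and 6.01 at A0 1 h, 6.59 and 6.49 at A0 3 h, 4.83 and 6.26 at A0 6 h and 5.76 and 5.94 at A0 12 h. It read 6.26 and 6.04 at cisplatin 3 h, 6.59 and 6.63 at cisplatin 6 h and 6.74 and 6.42 at cisplatin 12 h, against 6.995 and 7.07 in control. The difference between A0 6 h and A0 3 h was -0.99 (SE 0.33, limma adjusted p = 0.637) and rested on A0 6 h replicate 1, which did not detect the probe. It was -0.28 without that array and -1.71 without A0 6 h replicate 2 (adjusted p = 0.0103).

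GI_4759139-S was detected on all 16 arrays and its replicates lay close together. It read 6.37 and 6.50 at A0 1 h, 6.32 and 6.38 at A0 3 h, 6.79 and 6.77 at A0 6 h and 6.44 and 6.42 at A0 12 h. It read 6.73 and 6.59 at cisplatin 3 h, 7.03 and 7.14 at cisplatin 6 h and 7.41 and 7.23 at cisplatin 12 h, against 7.06 and 7.27 in control. Every A0 array was below every control array, and A0 6 h stood above the other A0 groups. The difference for A0 6 h minus A0 3 h was 0.43 (SE 0.18, limma adjusted p = 0.87), and that for cisplatin 6 h minus cisplatin 3 h was 0.42 (SE 0.18, adjusted p = 0.443).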

How the data were processed

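Total RNA was amplified, labelled with biotin and hybridised to 16 bead arrays. The deposited array files give, per the file headers, the mean bead intensity of each probe on a linear scale, its bead SD, its bead count and a detection score, a fraction from 0 to 1. The submitters' processing notes name BeadStudio 1.5.1.3. Processed intensity values in another deposited table chose the members. Within an array these values rose linearly with the signal, with a factor of 0.848 to 2.55 and a largest residual of 0.079 to 0.177, so their scale is linear and background was subtracted. The normalisation has no name in the sources used here. The columns' medians ran from 10.9 to 21.3.

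For the tests, the neqc function of limma 3.58.1 (R 4.3.3) was applied to the intensities (offset 16, background from the detection scores, quantile normalisation, log2). Testing needed a detection p of 0.01 or less on both arrays in 1 or more groups, a filter passed by 9293 of 24350 probes and by all 135 members. Members passed by the rule's own demand for detection in control. All 16 arrays entered 1 linear model of the 8 group means, with 8 residual and 5.99 prior degrees of freedom. Fold changes are differences of normalised log2 values, and p-values were adjusted by Benjamini-Hochberg over all tested probes. The test was checked on simulated data. Between 7626 and 9640 probes were detected per array, with a median signal of 93.5 to 130.7 and 41 or 42 beads per probe, and the number of arrays limits the precision. Over the tested probes, the 2 arrays of a group had correlations from 0.961 to 0.984.

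The members, lists and tests were chosen with earlier results of these data known. The 12 gene lists with 160 entries could not be matched, since 0 probe names matched, and none was counted. Named probes were those with the most negative and most positive difference in A0 6 h minus cisplatin 6 h and in A0 6 h minus A0 3 h, among members that passed the adjusted threshold or, where none did, those with the lowest p on that side. Alternatives covered normalisation, values, filter, variance model, arrays in the fit, the replicate number as a block, leaving out each array, and the limits of the rule.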

Additional observations from a re-analysis of the deposited data

Results flagged for a closer look

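A0 and cisplatin differed at 6 h in limma's test over all 16 arrays. There, 26 of the 135 members (19.3%) were lower with A0 than with cisplatin, against 4.87% of all tested probes. With only the 8 arrays that the rule did not use in the model, 15 were (11.1%, against 3.14%). The excess over all probes nearly vanished when cisplatin 6 h replicate 2 was dropped from the full model. Among these members GI_15812190-S had the most negative log2 difference, -2.62. Dropping arrays singly moved this value between -3.44 and -1.80, and its call was not always kept.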

How the results depend on the processing

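Array number limits these results. For A0 6 h minus cisplatin 6 h, 26 members (19.3%, against 4.87% of all tested probes) were called lower. They were 25 (18.5%, against 4.51%) with 75th percentile centring and 26 (19.3%, against 4.23%) with the deposited processed values. They were 24 (17.8%, against 5.06%) with a trended and robust variance and 34 (25.2%, against 6.24%) with the replicate number as a block. They were 14 with no filter, 10 (all probes 293 lower, 196 higher) with probes detected on all 16 arrays, 15 (all probes 292 lower, 197 higher) with only the 8 arrays of the compared groups, and 2 to 29 with each array left out, where all probes ran from 122 to 493 lower (453 in the full fit) and from 70 to 340 higher (306). Fewer probes or arrays enter some of these fits, and the cause was not tested further. In the direction of higher values with A0, 0 members were called under each of these settings.

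At 3 h the drugs differed at 1 probe lower and 1 higher among all probes. The higher count was 7 with 75th percentile centring, 2 with the deposited processed values, 5 with probes detected on all 16 arrays, 6 with a trended and robust variance, 6 with the replicate block and 0 to 7 with an array left out, and the lower count was 0 with probes detected on all 16 arrays and 1 to 3 with an array left out. For cisplatin 6 h minus cisplatin 3 h, the 7 lower were 16 with a trended and robust variance, 0 with only the 8 arrays and 0 to 13 with an array left out, and the 0 higher were 1 with the deposited processed values, 2 with probes detected on all 16 arrays, 1 with a trended and robust variance and 0 to 5 with an array left out. For A0 6 h minus A0 3 h an array left out gave 0 to 2 lower, 0 to 13 higher and 0 to 1 member, and for the interaction 0 to 1 lower, 0 to 1 higher and 0 to 1 member.

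The median of the members at A0 12 h relative to control was -1.02 on the neqc scale and -0.88 with 75th percentile centring. The number of members was 80 with a floor of 64, 256 with a limit of -0.5, 35 with a limit of -1, 159 with a floor of 16, 135 with neqc values (101 of them shared) and 117 to 172 with an array left out. Without control 1 it was 172, of which 102 were shared, and without control 2 it was 122, of which 88 were shared. Replicate numbers are not stated to pair samples. Deviations of same-numbered arrays correlated at 0.129 to 0.366 in the 4 pairs of groups compared and at -0.259 to 0.378 over all 28 pairs.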
